A study of Mus musculus with 1600 samples.

Results

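The genes described here are 10 components of the insulin-like growth factor (IGF) system, out of 45792 gene identifiers in the deposited tables. They are the binding proteins Igfbp2, Igfbp3, Igfbp4, Igfbp5, Igfbp6 and Igfbp7, the ligand Igf1, and the receptors Igf1r, Igf2r and Insr. They were chosen by name, with the direction of Igfbp5 in endothelial and mesangial wells of these same samples already known. That direction is therefore described below without a test. All 10 had at least 1 read in the wells used.

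IGF-binding proteins are secreted proteins that hold IGF1 and IGF2 in the extracellular space and control how much ligand reaches the type 1 receptor, a tyrosine kinase that signals through IRS proteins, PI3 kinase and AKT. Igfbp5 and Igfbp7 also bind matrix components, and Igfbp7 has a low affinity for IGFs. Igf2r clears IGF2 and carries mannose 6-phosphate-tagged enzymes to lysosomes, and Insr is the insulin receptor. In the glomerulus, fenestrated endothelial cells line the capillaries, mesangial cells are the contractile pericytes between them, and podocytes form the outer filtration layer.

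RNA was sequenced from single chambers (wells) of the Fluidigm C1 800-cell system, loaded with glomerular cells of Nos3-/- mice on the C57BL/6 background, which lack endothelial nitric oxide synthase in every group. Diabetic mice had been injected from 8 weeks of age, once daily for 5 days, with 50 µg of streptozotocin per g, which destroys the beta cells of the pancreas, and control mice with citrate buffer. All were studied at 10 weeks. Glomeruli of 3 mice were pooled per condition in each of 2 experiments, which gave Diabetes replicates 1 and 2 and Control replicates 1 and 2. These 4 pools, and not wells, are the replicates of a condition.

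Of 1600 wells, 639 held 1 imaged cell, at least 500 genes and at most 30% mitochondrial reads. They comprised 128 and 188 wells of Diabetes replicates 1 and 2, and 120 and 203 wells of Control replicates 1 and 2. Depth followed the experiment, with a median of 43577 and 176715 reads per kept well in the diabetes pools and 32222 and 219072 in the control pools. Wells imaged as empty also held RNA, with a median of 2397 and 32994 reads in the diabetes pools and 2212 and 33610 in the control pools, so the level of each member in empty wells is also given below. The design text calls the controls sex-matched littermates, but sex-linked transcripts separated the conditions. In endothelial-like wells Xist stood at 1.64 and 1.26 CPM (reads of a gene scaled to a library total of 1000000) in the diabetes pools against 446 and 240 CPM in the control pools, and 4 Y-linked genes summed to 171 and 166 CPM against 0.212 and 0.819 CPM. Condition and sex-linked expression cannot be told apart in any comparison below.

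Clusters were built without the 10 members and named from marker genes. Endothelial-like wells numbered 77 and 95 in the diabetes pools and 45 and 79 in the control pools, and their summed endothelial markers stood at 21433 and 17328 CPM against 18505 and 20769 CPM. Mesangial-like wells numbered 5 and 23 in the diabetes pools and 27 and 66 in the control pools. Podocyte-like wells (1 and 17 against 25 and 31) and immune-like wells (26 and 37 against 5 and 4) had too few wells in a pool for a test.

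The promoter of Igfbp5, the member on which the results turn, is shown as the 300 bases from 250 before to 50 after the annotated start, from RefSeq on GRCm38.p6, read 5′ to 3′ on the minus strand (chr1:72874816-72875115). In GENCODE M21 the gene itself spans 72857932 to 72874884 on chromosome 1 and overlaps no other annotated gene. That span puts the start at a different base, further upstream than the RefSeq start. Capitals mark the A/T-rich motif TATTTAA, which begins 51 bases before the RefSeq start. It was searched on both strands and stood in 4.51% of 32851 promoters of this length. Igfbp7 was added for comparison after its values were seen, because it was the other binding protein that was abundant in glomerular wells. Its window is chr5:77407996-77408295, also on the minus strand, and capitals mark the 4 matches to the GC box GGGCGG or its reverse complement CCGCCC, found in 35.7% of promoters.
Igfbp5: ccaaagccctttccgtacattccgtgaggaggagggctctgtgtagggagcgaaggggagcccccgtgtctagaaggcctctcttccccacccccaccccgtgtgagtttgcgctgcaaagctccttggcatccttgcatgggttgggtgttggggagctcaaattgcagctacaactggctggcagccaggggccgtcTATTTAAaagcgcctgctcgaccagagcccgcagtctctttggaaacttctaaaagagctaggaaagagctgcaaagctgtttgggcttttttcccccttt
Igfbp7: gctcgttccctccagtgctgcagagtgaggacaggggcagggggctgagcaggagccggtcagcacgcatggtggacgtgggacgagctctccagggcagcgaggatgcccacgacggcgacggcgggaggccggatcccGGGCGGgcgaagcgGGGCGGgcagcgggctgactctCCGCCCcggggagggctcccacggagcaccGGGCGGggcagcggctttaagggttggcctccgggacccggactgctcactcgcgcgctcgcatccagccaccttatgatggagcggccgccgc
Among 10 promoters of 9 members (Insr was not matched, and Igfbp2 has more than 1), TATTTAA stood in that of Igfbp5 alone, TATAAA in those of Igfbp4 and Igfbp6 (13.6% of all promoters), and GGGCGG in those of Igf1r, Igf2r, Igfbp2 and Igfbp7. The forkhead motif GTAAACA (3.65% of all promoters) stood in none of them. These are matches of letters only.

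Igfbp5, a binding protein that also attaches to matrix, was read in 93.5% and 98.9% of endothelial-like wells of the diabetes pools and in 95.6% and 100% of those of the control pools. Summed over the wells of a pool, it stood at 3974 and 1345 CPM in Diabetes replicates 1 and 2, against 9344 and 5058 CPM in Control replicates 1 and 2. Both diabetes pools lay below both control pools. The fitted log2 fold change was -1.56 (n = 2 pools each), and the ratio within each experiment was -1.23 and -1.91 on the log2 scale.

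The lower endothelial level was a feature of most wells and not of a few. The median well held 3629 and 687 CPM in the diabetes pools, against 7756 and 4344 CPM in the control pools. Of the diabetes wells, 12 of 77 in replicate 1 (15.6%) and 7 of 95 in replicate 2 (7.37%) lay above the median control well of their own experiment. The upper quartile of the diabetes wells was 6053 and 1758 CPM, below the control median in both experiments. No well gave more than 10.3% of a pool's Igfbp5 reads. Thinned to 10000 reads per well, wells averaged 42.2 and 15.4 Igfbp5 reads in the diabetes pools and 94.8 and 50.3 in the control pools. Spike-in RNA, counted in experiment 1, gave 18.4 Igfbp5 reads per 1000 spike reads in the diabetes pool and 33.4 in the control pool.

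**Figure D1:**
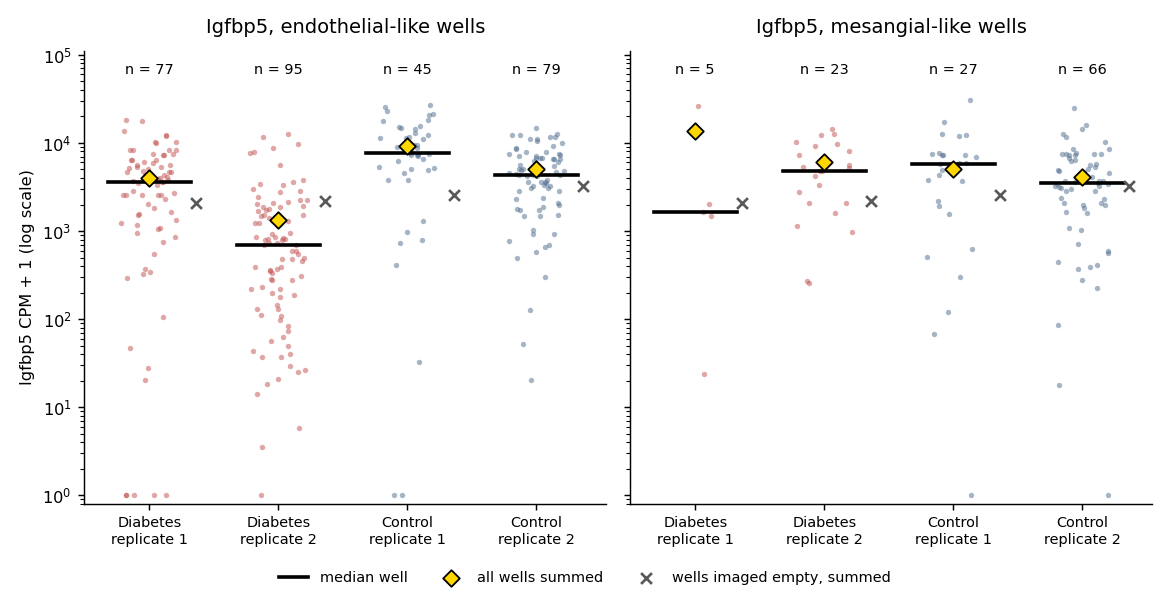
Igfbp5 in single wells, as CPM + 1 on a log axis, for endothelial-like (left) and mesangial-like (right) wells of the 4 pools; each point is a well, black bars are median wells, diamonds are the pool's wells summed and crosses are the wells imaged empty, summed. In endothelial-like wells the bar and the diamond of each diabetes pool lie below those of the control pool of its experiment. In mesangial-like wells of Diabetes replicate 1 the diamond at 13832 CPM follows 1 well of 5.

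Empty wells held 2075 and 2202 CPM of Igfbp5 in the diabetes pools and 2534 and 3272 CPM in the control pools. The endothelial-like level of Diabetes replicate 2, at 1345 CPM, was thus below that of its empty wells as a share of reads. In reads per well it was above, with 292 reads per endothelial-like well and 106 per empty well in that pool. The same comparison gave 174 and 7.78 reads in Diabetes replicate 1, 323 and 9.82 in Control replicate 1, and 1278 and 130 in Control replicate 2. Other cell types' markers also moved in the endothelial-like sums. The 12 immune markers summed to 418 and 262 CPM in the diabetes pools against 94.8 and 57.0 CPM in the control pools, and the 4 haemoglobin markers to 12781 and 30.1 CPM against 0 and 26.0 CPM. Their part in the Igfbp5 difference was not tested.

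The endothelial-like wells fell into 3 clusters. In the cluster led by Ly6c1, Emcn and Plpp1, Igfbp5 stood at 4825 and 850 CPM in the diabetes pools and 10517 and 4777 CPM in the control pools. In the cluster led by Kdr, Plpp3 and Emcn it stood at 3518 and 2556 CPM in the diabetes pools and 10786 and 7364 CPM in the control pools. Diabetes was lower in both experiments in each of these clusters. The cluster led by Ly6c1, Ly6a and Emcn was the exception, with 3835 and 1331 CPM in the diabetes pools and 3202 and 5129 CPM in the control pools. Its control sum in experiment 1 came from 7 wells, of which 1 gave 54.3% of the reads. The mix of clusters differed between pools. This last cluster held 31 and 49 wells of the diabetes pools and 7 and 33 of the control pools. The first held 20 and 29 against 14 and 40, and the second 26 and 17 against 24 and 6. The part of this mix in the Igfbp5 difference over all endothelial-like wells was not tested. These clusters were cut from the same wells and are given as a description.

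In mesangial-like wells the summed Igfbp5 level pointed the other way. It stood at 13832 and 6105 CPM in the diabetes pools against 5122 and 4096 CPM in the control pools. The fitted log2 fold change was 1.00 (n = 2 pools each), with 1.43 in experiment 1 and 0.58 in experiment 2. Both diabetes sums lay above both control sums. The first of them rests on 1 well.

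Diabetes replicate 1 had 5 mesangial-like wells, with 26585, 2005, 1635, 1479 and 23.0 CPM of Igfbp5. The highest held 183186 reads, 50.5% of the reads of the 5 wells, and gave 97.1% of their Igfbp5 reads. It also gave all of the pool's mesangial-like Insr and Igf1r reads. Its mesangial markers summed to 9111 CPM and its endothelial markers to 2141 CPM, against a range of 1635 to 15559 and of 858 to 10151 CPM in the other 4. Without the well highest in Igfbp5 in each pool, the level was 800 and 5559 CPM in the diabetes pools and 4594 and 3917 CPM in the control pools.

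The median mesangial-like well held 1635 and 4837 CPM of Igfbp5 in the diabetes pools and 5731 and 3548 CPM in the control pools, so the ratio turned to -1.81 on the log2 scale in experiment 1 and was 0.45 in experiment 2. The mean over wells, each scaled alone, was 6345 and 5587 CPM in the diabetes pools and 6327 and 4592 CPM in the control pools. With the highest well of each gene left out of every pool, the fitted log2 fold change was -0.82. That setting bears unequally on the pools, as it left 118423 of 362266 reads in Diabetes replicate 1 and 11677264 of 14538131 in Control replicate 2. In experiment 2, where 23 diabetes and 66 control wells were compared, the sum, the mean and the median of the wells were each higher in diabetes, and 14 of 23 diabetes wells (60.9%) lay above the control median. The opposite directions of Igfbp5 in endothelial-like and mesangial-like wells therefore held in both experiments by summed reads, and in experiment 2 alone by the median well.

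**Figure D2:**
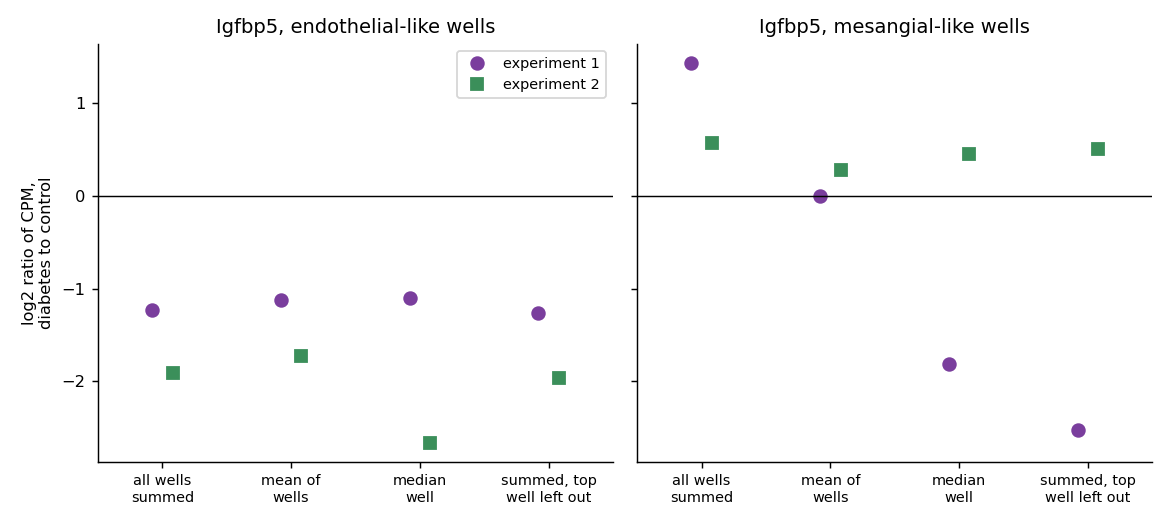
Log2 ratio of Igfbp5 CPM, diabetes to control, within each experiment (circles, experiment 1; squares, experiment 2), when the wells of a pool are summed, averaged, represented by the median well, or summed without the well highest in Igfbp5. The endothelial-like ratios (left) stay below 0 throughout, and the mesangial-like ratio of experiment 1 (right) runs from 1.43 to -2.52.

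The mesangial-like wells of the 2 conditions also differed in their markers. Their 11 mesangial markers summed to 9451 and 9681 CPM in the diabetes pools against 17283 and 14595 CPM in the control pools. Fibroblast markers summed to 4933 and 1405 CPM against 206 and 395 CPM, and smooth muscle or renin cell markers to 2051 and 2200 CPM against 645 and 611 CPM. Of the 11 genes that passed the threshold in this class, 3 were markers from the mesangial list (Adamts5, Gata3 and Sfrp2), all lower in diabetes. The part of these shifts in the Igfbp5 and Igfbp7 values was not tested.

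Igfbp5 was chosen on this contrast, so no call is given for it in either class and it is left out of the counts that follow. In endothelial-like wells, 7 other members were tested and 0 passed by edgeR's quasi-likelihood test with Benjamini-Hochberg adjustment over all genes, where 4 of 12494 genes passed (0.032%). In mesangial-like wells, 5 other members were tested and 0 passed, where 11 of 10191 genes passed (0.108%). At an unadjusted p under 0.05 by edgeR, 570 of 12494 and 274 of 10191 genes passed in these classes, a share below 0.05 in both. By DESeq2, 76 and 24 genes passed after adjustment and again none of these other members. DESeq2 gave no adjusted p for Igf1 in endothelial-like wells. Over all genes tested, the median log2 fold change was 0.07 in endothelial-like and -0.42 in mesangial-like wells.

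Igfbp7, a secreted binding protein of pericytes and vessel walls, was abundant in mesangial-like wells and in the few fibroblast-like wells, where the 5 of Diabetes replicate 1 summed to 11269 CPM. It was read in every mesangial-like well but 1, which belonged to Control replicate 1. It stood at 16626 and 10650 CPM in the diabetes pools, against 9039 and 7920 CPM in the control pools. The diabetes pools were higher in both experiments, with a log2 fold change of 0.65 (SE 0.22) and an adjusted p of 1 by edgeR. The well highest in Igfbp7 gave 56.5% of the reads in Diabetes replicate 1. With the highest well of each gene left out, the log2 fold change was 0.81 and the adjusted p 0.00015 by edgeR, the only alternative under which it passed. That setting took 1 well of 5 per gene from Diabetes replicate 1 and lowered its reads from 362266 to 118423. From Control replicate 2 it took 1 well of 66 and lowered the reads from 14538131 to 11677264. The effect of this imbalance on the result was not tested. The median well held 12324 and 7058 CPM in the diabetes pools and 7295 and 6709 CPM in the control pools. Empty wells held 1507 and 4592 CPM against 3874 and 3759 CPM.

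**Figure D3:**
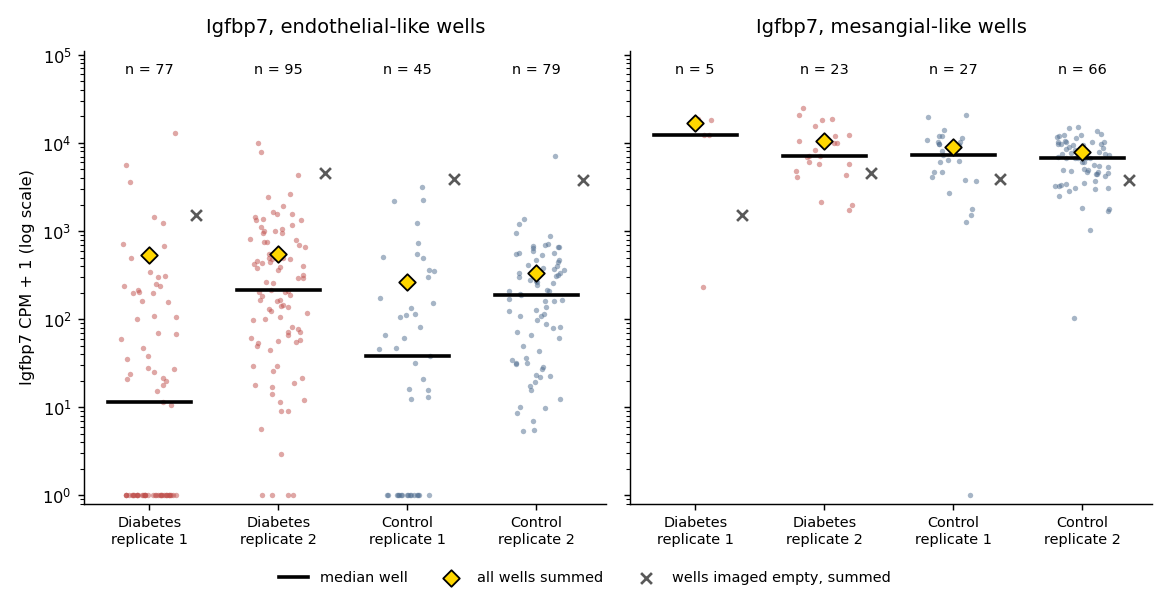
Igfbp7 in single wells, drawn as CPM + 1 on a log axis with points for wells, bars for median wells, diamonds for summed wells and crosses for summed empty wells. The mesangial-like sums (right) lie between 7920 and 16626 CPM and above the empty wells, and the endothelial-like sums (left) lie between 266 and 554 CPM and below them.

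In endothelial-like wells Igfbp7 stood at 536 and 554 CPM in the diabetes pools against 266 and 332 CPM in the control pools, below the empty-well level in all 4 pools. The log2 fold change was 0.89 (SE 0.31, adjusted p = 1 by edgeR). A few wells carried it. The median well held 10.5 and 216 CPM in the diabetes pools and 37.5 and 186 CPM in the control pools, so the direction in experiment 1 turned (log2 ratio -1.84). Podocyte-like wells held 3345 CPM in the single well of Diabetes replicate 1 and 4852 CPM in Diabetes replicate 2, against 8317 and 4349 CPM in the control pools, each above the empty-well level of its pool. Igfbp7 overlaps Polr2b on the other strand, and the sources do not say whether reads were counted by strand.

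Igfbp4, a binding protein cleaved by the protease PAPP-A, was also highest in mesangial-like wells among the classes with at least 5 wells in every pool. It stood at 682 and 1580 CPM in the diabetes pools and 1214 and 1192 CPM in the control pools, so the groups overlapped (log2 fold change -0.21, SE 0.43, adjusted p = 1 by edgeR). In endothelial-like wells it stood at 179 and 131 CPM in the diabetes pools and 173 and 148 CPM in the control pools. That is below the 233 and 662 CPM of empty wells in the diabetes pools and the 330 and 658 CPM of those in the control pools. The endothelial-like log2 fold change was -0.05 (SE 0.41, adjusted p = 1 by edgeR).

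**Figure D4:**
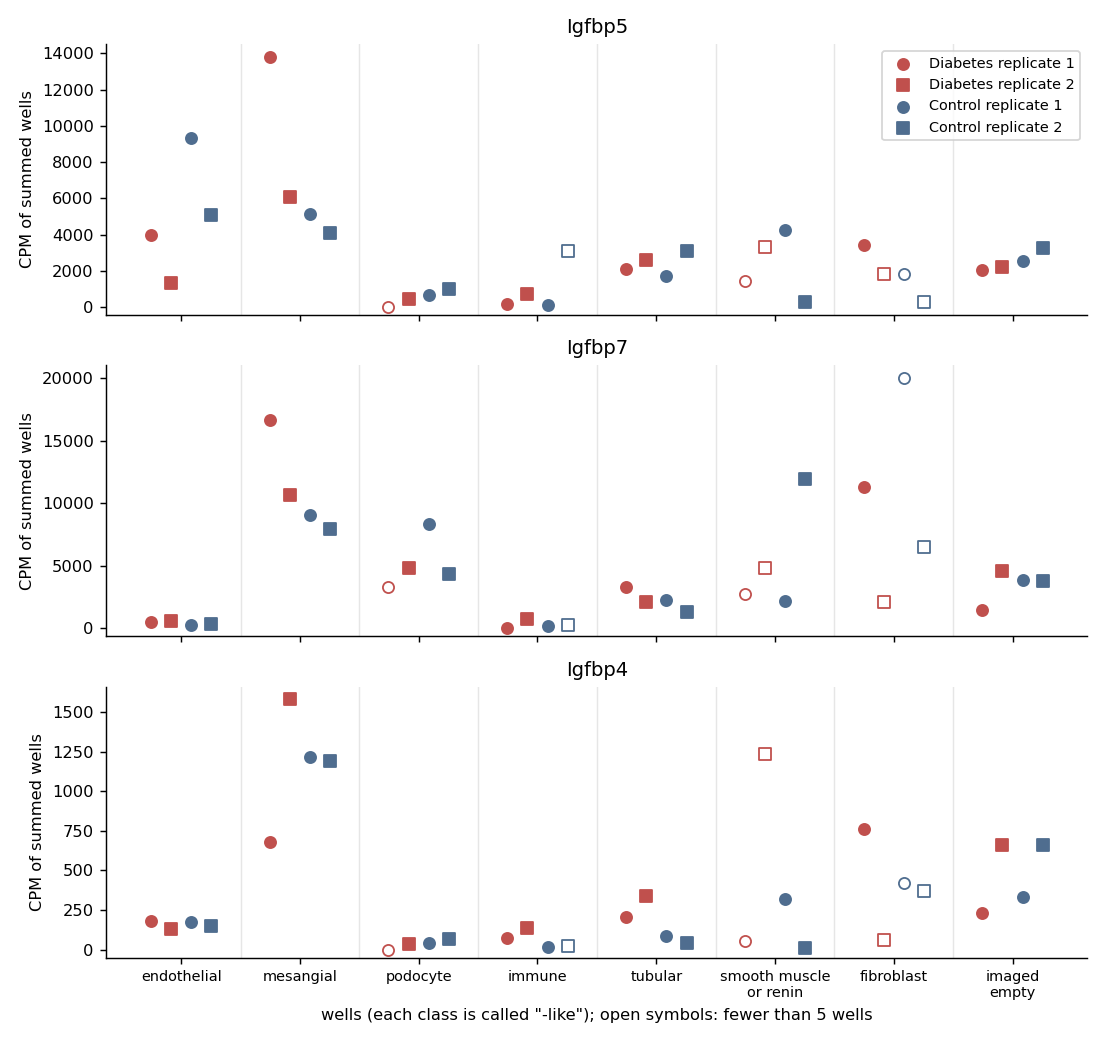
Igfbp5, Igfbp7 and Igfbp4 in CPM of summed wells for 7 classes and for wells imaged empty; circles are experiment 1, squares experiment 2, and open symbols mark sums of fewer than 5 wells. Igfbp5 lies above its pool's empty-well level in all 4 mesangial-like sums and in the endothelial-like sums other than that of Diabetes replicate 2 (1345 CPM), and Igfbp7 and Igfbp4 lie above it in all 4 mesangial-like sums.

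Among sums of at least 5 wells, the mesangial-like range of Igfbp5 (4096 to 13832 CPM) overlapped the endothelial-like range (1345 to 9344 CPM). The 13832 CPM of Diabetes replicate 1 rests on 1 well of 5, and without that well the level was 800 CPM. In both control pools the endothelial-like sum lay above the mesangial-like sum, and in both diabetes pools it lay below. The 1 fibroblast-like sum of at least 5 wells, that of Diabetes replicate 1, stood at 3437 CPM. The smooth muscle or renin cell-like sums of Control replicates 1 and 2, of 6 wells each, lay far apart at 4255 and 257 CPM. Tubular-like sums ran from 1729 to 3118 CPM, overlapping the 2075 to 3272 CPM of empty wells. Their tubular markers summed to 2021 and 6056 CPM in the diabetes pools and 4673 and 2053 CPM in the control pools. Endothelial markers in the same sums stood at 6168 and 2965 CPM and at 8483 and 13978 CPM, above the tubular ones except in Diabetes replicate 2. Podocyte-like sums (466 to 1001 CPM) and immune-like sums (128 to 718 CPM) of at least 5 wells lay below every empty-well sum, and their ranges overlapped. The 4 immune-like wells of Control replicate 2 are outside this range. Thinned to 10000 reads, they averaged 38 Igfbp5 reads, against 32.7 in empty wells of that pool. Over 21 sums of a class and pool with at least 5 wells, the genes whose log2(CPM + 1) tracked Igfbp5 most closely among 3846 genes were Clec14a, Fgd5, Crip2, Plscr2 and Sptbn1, with Pearson correlations of 0.77 to 0.79. Those nearest to Igfbp7 were Fat1, Htra1, Mylk, Foxc1 and Pcolce (0.84 to 0.86). Those nearest to Igfbp3 were Serinc3, Gnai2, 2510009E07Rik, Arap3 and Eogt (0.59 to 0.68). Sums of one pool share their chip and depth, so these are descriptions.

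Igfbp3, the main carrier of IGFs in serum, was read in few wells. Endothelial-like sums held 96.1 and 30.9 CPM in the diabetes pools, with a read in 12 of 77 and 16 of 95 wells. They held 198 and 0.451 CPM in the control pools, with a read in 10 of 45 and 7 of 79 wells. Empty wells held 113 and 53.6 CPM in the diabetes pools, above the endothelial-like sums of the same pools, and 6.62 and 3.39 CPM in the control pools. The groups overlapped, the ratio was -1.04 in experiment 1 and 6.10 in experiment 2 on the log2 scale, and the fitted change of 2.26 had an SE of 1.96 (adjusted p = 1 by edgeR). One well gave 64.3% and 52.6% of the reads in the diabetes pools. Fibroblast-like wells had no Igfbp3 read in the diabetes pools (5 wells and 1 well) and held 294 and 467 CPM in the control pools (3 and 2 wells). These sums are not of like content. Their fibroblast markers stood at 21009 and 1001 CPM in the diabetes pools and 55348 and 26350 CPM in the control pools. Their endothelial markers stood at 7117 and 13923 CPM against 158 and 762 CPM.

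Igfbp2 and Igfbp6 were too low to test in either class. Igfbp2 was read mainly in tubular-like wells of Diabetes replicate 1, in 37.5% of 8 wells and at 261 CPM, of which 1 well gave 48.2%. Endothelial markers in these 8 wells summed to 6168 CPM and tubular markers to 2021 CPM. Igfbp6 was read mainly in fibroblast-like wells of the same pool, in 3 of 5 wells and at 140 CPM. In endothelial-like wells both stood under 1 CPM in every pool. Empty wells held 16.2 and 2.04 CPM of Igfbp2 in the diabetes pools and no read in the control pools, and 8.69 and 0.64 CPM of Igfbp6 in the diabetes pools against 0 and 0.226 CPM in the control pools.

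The ligand Igf1 was read mainly in immune-like wells and in the few fibroblast-like wells. In immune-like wells it stood at 716 and 88.6 CPM in the diabetes pools, with a read in 88.5% of 26 wells (95% exact Clopper-Pearson interval 69.8 to 97.6) and 29.7% of 37 wells (15.9 to 47.0). In Control replicate 1 it stood at 475 CPM, all from 1 of 5 wells, and in Control replicate 2 it had no read in 4 wells, which allows a share of up to 75% taken as 3 wells of the total and 60.2% by the exact interval. Empty wells held 133 and 23.0 CPM in the diabetes pools and 10.6 and 1.58 CPM in the control pools. The control wells are too few for a comparison of conditions. The immune-like sums of the diabetes pools also differed in other measures. Their 12 immune markers summed to 59730 CPM in replicate 1 and 13758 CPM in replicate 2, and their endothelial markers to 1096 and 5454 CPM. The median well held 76298 and 95895 reads, of which 8.16% and 18.8% were mitochondrial. The part of these in the Igf1 values was not tested. Fibroblast-like wells also held Igf1, at 650 and 60.1 CPM in the diabetes pools (5 wells and 1 well) and 503 and 86.5 CPM in the control pools (3 and 2 wells). Thinned to 10000 reads, an Igf1 read remained in 100% and 0% of these wells in the diabetes pools. In the control pools it remained in 66.7% and 0%. The 1 well of Diabetes replicate 2 held more endothelial marker reads (13923 CPM) than fibroblast marker reads (1001 CPM).

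In endothelial-like wells Igf1 was read in 10.4% and 7.37% of wells in the diabetes pools and in 0 of 45 and 0 of 79 wells in the control pools, which allows shares of up to 6.67% and 3.80% taken as 3 wells of the total and 7.87% and 4.56% by the exact interval. The diabetes level of 5.32 and 1.75 CPM was 2.76 and 11.6 times a set floor of 3 reads in the control pool of the same experiment. Igf1 had 18 and 36 reads in the diabetes pools and 0 in both control pools. It therefore passed the filter on low counts through the diabetes pools alone. The adjusted p was 1 by edgeR. Empty wells, with a median of 2397 and 32994 reads in the diabetes pools, showed an Igf1 read more often, in 18.5% and 13.3% of wells against 3.59% and 3.60% in the control pools. The endothelial-like shares, at medians of 37860 and 200436 reads, lie below those of empty wells. Thinned to 10000 reads, an Igf1 read remained in 7.14% and 2.11% of endothelial-like and 72.7% and 18.9% of immune-like wells of the diabetes pools. Intervals and floors cover counting error only.

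**Figure D5:**
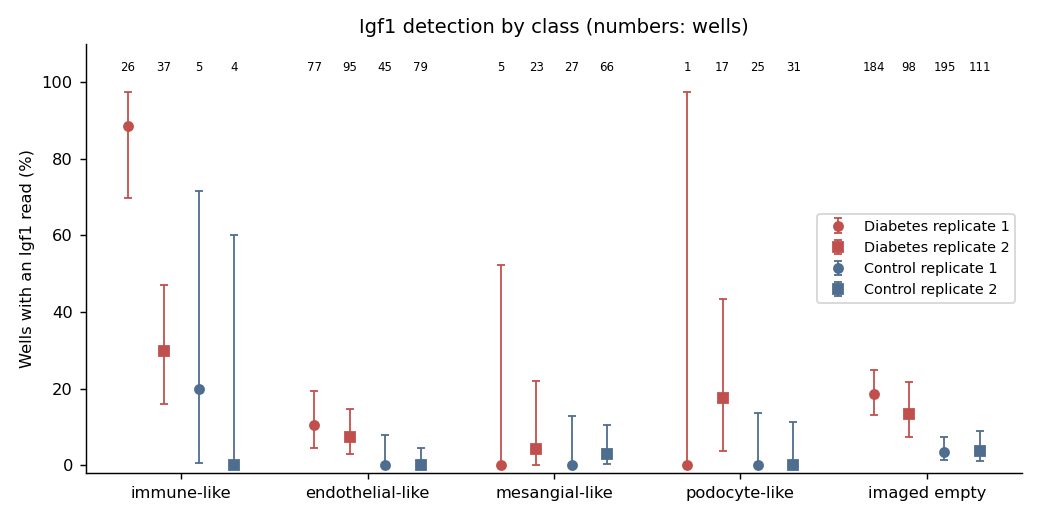
Percentage of wells with an Igf1 read for 4 classes and for wells imaged empty, with exact 95% Clopper-Pearson intervals; circles are experiment 1, squares experiment 2, and the number of wells stands above each point. Among the wells drawn, which leave out the fibroblast-like class, immune-like wells of Diabetes replicate 1 stand highest at 88.5%. Empty wells of the diabetes pools (18.5% and 13.3%) lie above those of the control pools (3.59% and 3.60%).

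The receptors were read sparsely. Insr stood at 45.6 and 83.2 CPM in endothelial-like wells of the diabetes pools against 30.9 and 45.7 CPM in the control pools, and empty wells held 55.0 and 92.0 CPM against 34.4 and 25.6 CPM. The lower diabetes pool and the higher control pool were level, and the log2 fold change was 0.73 (SE 0.65, adjusted p = 1 by edgeR). In mesangial-like wells Insr stood at 254 and 4.09 CPM in the diabetes pools, the first from 1 well, and at 30.8 and 32.5 CPM in the control pools. Igf1r, the signalling receptor of IGF1, stood at 24.0 and 5.92 CPM in endothelial-like wells of the diabetes pools and at 0 and 4.71 CPM in those of the control pools. Empty wells held 5.79 and 8.73 CPM of Igf1r in the diabetes pools and 7.94 and 14.2 CPM in the control pools. Its mesangial-like ratios pointed opposite ways, at 1.81 in experiment 1 and -2.21 in experiment 2 on the log2 scale. Igf2r stood at 6.51 and 28.1 CPM in endothelial-like wells of the diabetes pools against 54.7 and 17.2 CPM in the control pools, with overlapping groups. Empty wells held 15.9 and 36.4 CPM of Igf2r in the diabetes pools and 19.9 and 22.4 CPM in the control pools. Neither Igf1r nor Igf2r passed the threshold in either class (adjusted p = 1 by edgeR in all 4 tests). Igf1, Igf2r and Insr each overlap an annotated gene on the other strand.

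Of 38 further genes of the pathway (ligand Igf2, proteases and inhibitors of binding proteins, IRS, PI3 kinase, AKT and mTOR components), 25 were tested in endothelial-like wells. Of these, 11 had a positive and 14 a negative log2 fold change, and 0 passed the threshold (median log2 -0.10). Of all 12494 genes tested in this class, 6679 were positive and 5815 negative. The smallest unadjusted p belonged to Grb10, an adaptor that restrains insulin and IGF receptor signalling, at 28.9 and 7.29 CPM in the diabetes pools against 99.8 and 57.1 CPM in the control pools (log2 fold change -2.37, SE 0.76, adjusted p = 1 by edgeR). Next came Igf2, with 46 and 104 reads in the diabetes pools and 0 in both control pools, and the S6 kinase Rps6kb1 at 50.0 and 36.6 CPM against 112 and 61.8 CPM (adjusted p = 1 by edgeR for both). The Igf2 reads came from 3.90% and 5.26% of the wells, and Igf2 passed the filter on low counts through the diabetes pools alone.

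In mesangial-like wells, 24 of the 38 were tested, 5 with a positive and 19 with a negative log2 fold change, and 0 passed (median log2 -0.70, against -0.42 for all genes tested). Of all 10191 genes tested in this class, 3986 were positive and 6205 negative. The smallest unadjusted p values belonged to the kinase Pdpk1, the mTOR regulator Tsc2 and the kinase Gsk3b, all with an adjusted p of 1 by edgeR. Each of these 3 had no read in the 5 wells of Diabetes replicate 1, and neither had several other listed genes, among them Tsc1, Ghr, Irs1 and Socs2.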

How the data were processed

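The files hold expected counts of reads per gene and well, which the authors deposited in 1 table per experiment, and whole-number spike-in counts, which the authors deposited for experiment 1. Per the submitters' processing notes, cutadapt 1.11, STAR 2.4.2a, BWA 0.7.17-r1188, featureCounts 1.5.1 and the build mm10 were used. How strand was used and how shared reads were split is not stated there. Symbols came from GENCODE M21 (45143 of 45792 identifiers).

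The members, lists and tests were chosen with earlier results of these data known. Kept wells (1 imaged cell, at least 500 genes, at most 30% mitochondrial reads) were scaled to log2(counts per 10000 + 1). They were clustered on 2000 variable genes, without the members and pathway genes, with 15 components, 15 neighbours and Leiden resolution 0.8 (scanpy 1.11.5). A cluster took the name of the list with most markers among its 50 leading genes by mean log difference, if 3 markers were detected in 25% of its wells and 1 stood in the top 10. Clusters led by immunoglobulin and cycling genes stayed unnamed. No doublet caller was run, since wells were imaged.

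Tests were planned for endothelial-like, mesangial-like, immune-like and podocyte-like wells, and run if every pool held at least 5 wells of the class. Reads were summed per class and pool and rounded. They were fitted with edgeR 4.0.16 (quasi-likelihood, TMM, filterByExpr) and the experiment as a block, and adjusted by Benjamini-Hochberg at 0.05. Tubular-like wells (8 and 5 in the diabetes pools, 8 and 8 in the control pools) were not among the planned classes and were not tested. DESeq2 1.42.0 was an alternative. Totals of the tested sums ran from 362266 to 20596900 reads. With 1 residual degree of freedom per gene, the p-values lean on spread shared across genes, wholly so in mesangial-like wells, where the prior degrees of freedom were infinite (8.23 in endothelial-like wells). The experiment is a shared chip, and deviations of pools with the same number correlated at 0.14 and 0.11 in endothelial-like and mesangial-like sums. The named genes were all 10 members, any pathway gene past the threshold or else the 3 with the smallest p, and the 5 genes most like Igfbp5, Igfbp7 and Igfbp3 among those with a mean of at least 50 CPM. CPM values are not scaled by gene length, so levels are not compared between genes. No molecular identifiers were counted.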

Additional observations from a re-analysis of the deposited data

Results flagged for a closer look

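Igfbp5 was singled out because its log2 ratio of diabetes to control was negative in both experiments in endothelial-like wells (-1.23 and -1.91) and positive in both in mesangial-like wells (1.43 and 0.58). The difference between the classes was not tested, since this contrast chose the genes. The value of 1.43 rests on 1 of 5 wells.

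Wells imaged empty, which belong to no class and entered no test, held some members at a higher CPM in both diabetes pools than in either control pool. Igf1 stood at 133 and 23.0 CPM in the diabetes pools against 10.6 and 1.58 CPM in the control pools, and the 12 immune markers stood at 8390 and 1888 CPM against 920 and 214 CPM in the same wells. Igfbp3 stood at 113 and 53.6 CPM in empty diabetes wells against 6.62 and 3.39 CPM, and Insr at 55.0 and 92.0 CPM against 34.4 and 25.6 CPM. Igfbp2 stood at 16.2 and 2.04 CPM against 0 and 0 CPM, and Igfbp6 at 8.69 and 0.64 CPM against 0 and 0.226 CPM, each of them with 50% or more of the reads from 1 well. Only members higher in diabetes were flagged. Igfbp5 went the other way in empty wells, lower in both diabetes pools than in either control pool. The groups overlapped for Igfbp4, Igfbp7, Igf1r and Igf2r. How many of all genes separated the conditions in empty wells was not counted.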

How the results depend on the processing

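The number of genes past the threshold was unstable in both classes. In endothelial-like wells (4 genes) it was 76 with DESeq2, 34 with no filter on low counts, 1 with no replicate block, 2 with wells thinned to 10000 reads, and 1 with no mitochondrial limit or with members kept for clustering. In mesangial-like wells (11 genes) it was 24 with DESeq2, 2 with no replicate block, 7 with the highest well of each gene left out, 4 with no mitochondrial limit, and 0 by edgeR with members kept for clustering (423 genes at an unadjusted p under 0.05). Leaving out 1 pool, fitted without the block, gave 1 to 22 genes in endothelial-like wells (22 without Diabetes replicate 1, 11 without Diabetes replicate 2 and 1 without either control pool) and 1 to 26 in mesangial-like wells (26 without Diabetes replicate 1, 1 without Control replicate 1 and 2 without either other pool), with the lone pool assumed to vary like the others. RLE scaling kept both counts within 1.5 times. The cause of these changes was not tested.

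Igfbp5 kept its direction in endothelial-like wells under all 14 alternatives (log2 -2.28 to -0.93) and turned in mesangial-like wells with the highest well of each gene left out (-0.82). Within experiment 1 its mesangial-like ratio was also -1.81 by the median well and -2.52 without the well highest in Igfbp5, both chosen after seeing the data, as was the median well for Igfbp7, which gave -1.84 in endothelial-like wells of experiment 1. Igfbp7 kept its direction in the fits of both classes under all alternatives. Without the replicate block, Igfbp3 in endothelial-like wells turned to -0.57 and Igf1r in mesangial-like wells to 0.58, and no member's call changed. With 1 pool left out, Igfbp3 in endothelial-like wells ranged from -1.59 to 6.95, Igfbp4 from -0.17 to 0.070 there and from -0.92 to 0.54 in mesangial-like wells, Igf1r in mesangial-like wells from -1.90 to 1.505, and Insr from -2.81 to 2.90. Igfbp4 in endothelial-like wells was 0.11 at a mitochondrial limit of 15% and 0.0026 with none, and Insr in mesangial-like wells was -0.52 with no mitochondrial limit and -0.35 with members kept for clustering. Mesangial-like wells were not fitted after thinning, at the 15% limit or at resolution 1.2, where a pool held fewer than 5 wells, and immune-like and podocyte-like wells were not tested for the same reason. In the endothelial-like sums 3 reads correspond to 0.887 and 0.146 CPM in the diabetes pools and to 1.93 and 0.150 CPM in the control pools, and lower levels were not detectable at this depth.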
